A study of Homo sapiens with 12 samples.

Results

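CEACAM6, CEACAM5, CEACAM1, SLPI, TM4SF4 and TM4SF1 are 6 genes of surface or secreted proteins. They were chosen by the changes in signal of CEACAM6, SLPI and TM4SF4 between rho0 and rho+ cells on these same arrays, with near relatives added. The changes of the 6 genes are therefore described below without a test. They are 6 of 11963 genes with a probe set of their own, and all their probe sets were taken, 15 of the 22283 on the array. A probe set is a group of short probes that read the 3′ part of a transcript. RNA of 4 groups was hybridised to 12 Affymetrix arrays, 3 per group. The rho0 groups were A549 and 143BTK- cells depleted of mitochondrial DNA (mtDNA), and the rho+ groups were the undepleted parental cells of each line. A549 is an epithelial line from a lung adenocarcinoma, and 143BTK- is an osteosarcoma line without thymidine kinase. Depletion took 3 weeks in 50 ng/ml ethidium bromide, and the rho0 cells were pooled with no selection of clones, so each rho0 group is a mixed population and not 1 clone. Medium with 10% serum, 1 mM pyruvate and 50 µg/ml uridine was shared by all groups, and exposure to ethidium bromide cannot be told apart from the loss of mtDNA. Each array came from a separate RNA extraction, and the p-values below measure the spread between such extractions. An exact permutation of 3 arrays against 3 cannot go below p = 0.1.

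The carcinoembryonic antigen family consists of immunoglobulin-like adhesion proteins. CEACAM5, the carcinoembryonic antigen itself, and CEACAM6 are held in the membrane by a glycosylphosphatidylinositol (GPI) anchor, whereas CEACAM1 spans the membrane and carries inhibitory signalling motifs in its longer cytoplasmic tail. SLPI, secretory leukocyte protease inhibitor, is released by airway and gland epithelium and blocks neutrophil elastase and other serine proteases. TM4SF1, the tumour antigen L6, and TM4SF4 belong to the L6 family of proteins that cross the membrane several times and resemble tetraspanins. Carcinomas, those of the lung among them, are known for high levels of CEACAM5, CEACAM6 and TM4SF1.

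The CEACAM genes lie on chromosome 19, the TM4SF genes beside each other on chromosome 3 and SLPI on chromosome 20. RefSeq promoters of the build GRCh38.p14 (250 bases before to 50 after the gene start) were found for 5 of the 6 genes, all but SLPI. Those of the CEACAM genes are printed because these 3 genes are close relatives. They cover chr19:41755280-41755579 (+ strand) for CEACAM6, chr19:41708376-41708675 (+ strand) for CEACAM5 and chr19:42528432-42528731 (- strand) for CEACAM1. Capitals mark the E-box letters CACGTG, which read the same on both strands.
CEACAM6: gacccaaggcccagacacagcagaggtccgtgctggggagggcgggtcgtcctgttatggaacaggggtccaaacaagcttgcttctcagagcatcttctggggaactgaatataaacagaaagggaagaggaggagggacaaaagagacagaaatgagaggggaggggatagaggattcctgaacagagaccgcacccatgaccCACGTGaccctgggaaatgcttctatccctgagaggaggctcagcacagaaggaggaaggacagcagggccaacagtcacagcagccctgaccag
CEACAM5: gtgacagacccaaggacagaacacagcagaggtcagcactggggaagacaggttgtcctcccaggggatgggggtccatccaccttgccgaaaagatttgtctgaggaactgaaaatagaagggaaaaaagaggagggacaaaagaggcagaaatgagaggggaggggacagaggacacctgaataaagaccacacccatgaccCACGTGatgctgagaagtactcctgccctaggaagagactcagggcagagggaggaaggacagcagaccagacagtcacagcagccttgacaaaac
CEACAM1: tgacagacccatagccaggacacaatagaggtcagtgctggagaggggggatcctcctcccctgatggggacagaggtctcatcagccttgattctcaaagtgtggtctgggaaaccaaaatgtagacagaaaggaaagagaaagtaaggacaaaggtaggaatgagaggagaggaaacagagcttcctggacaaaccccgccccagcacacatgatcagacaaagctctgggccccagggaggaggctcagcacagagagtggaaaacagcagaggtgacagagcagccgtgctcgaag
Aligned end to end, CEACAM6 and CEACAM5 shared 230 bases over 308 alignment columns (74.7%), with cagaaatgagaggggagggga as the longest shared run of 21 bases. The identity was 68.2% between CEACAM6 and CEACAM1 and 64.9% between CEACAM5 and CEACAM1. It was 48.1% between TM4SF4 and TM4SF1, and 44.1% to 45.1% between a CEACAM and a TM4SF promoter. The E-box letters began 45 bases before the start in CEACAM6 and 46 before it in CEACAM5, and were not in the windows of CEACAM1, TM4SF4 and TM4SF1. They occur in 7.26% of the 35116 promoters of the table. The GC box GGGCGG, on either strand, was in CEACAM6 (211 bases before the start), CEACAM1 (52) and TM4SF1 (130), and in 44.9% of all promoters. TATAAA was in CEACAM6 (139) and TM4SF4 (31), and in 11.5% of all promoters. The letters CCAAT, on either strand, were in TM4SF4 (126, on the opposite strand only) and TM4SF1 (76), and in 34.6% of all. TGANTCA and GGGANTTCC, the letters of AP-1 and NF-kB sites, were in none of the 5 windows and in 7.71% and 1.85% of all promoters. No matches of different motifs overlapped. These matches describe the letters of the window and are not measured binding sites.

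Signals are MAS5 intensities on a linear scale, quantile-normalized by the authors within each line. Levels can therefore be set side by side only within a line and within a probe set. For the tests, probe sets were ranked by their mean over a line's 6 log2 signals, and the upper 60% were kept (13370 in each line). The lowest mean signal kept was 17.9 in A549 and 15.0 in 143BTK-, and a fold change is given as "at least" where all or some arrays of the lower group were at or under it, with those arrays set to this level. Probe sets for genes of other tissues, such as insulin and lens crystallins, had group means of 1.37 to 29.4 in A549 and 0.767 to 25.0 in 143BTK-. Of the 15 probe sets, 12 were kept in A549 and 8 in 143BTK-. The filter keeps a probe set that is high in only 1 group, so the kept ones are not all members.

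CEACAM6, CEACAM5, CEACAM1, SLPI and TM4SF4 each had at least 1 probe set with lower signal in A549 rho0 than in A549 rho+ cells, while TM4SF1 was not lower on its kept probe sets. In A549 all 3 rho0 arrays lay below all 3 rho+ arrays for 8 of the 15 probe sets, above them for 2, and the groups overlapped for 5. Of the 12 that were kept in A549, 7 were all below and 2 all above. Over all kept probe sets of A549, 15.9% had all rho0 arrays below and 15.7% had all of them above the rho+ arrays. In 143BTK- the rho0 arrays were all below for 2 of the 15 and all above for 0, and 13 overlapped. Of the 8 that were kept there, 2 were all below and 0 all above, against 7.53% below and 7.46% above over all kept probe sets. Since these contrasts chose the genes, nothing is read from the A549 and 143BTK- counts beyond their description.

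**Figure D1:**
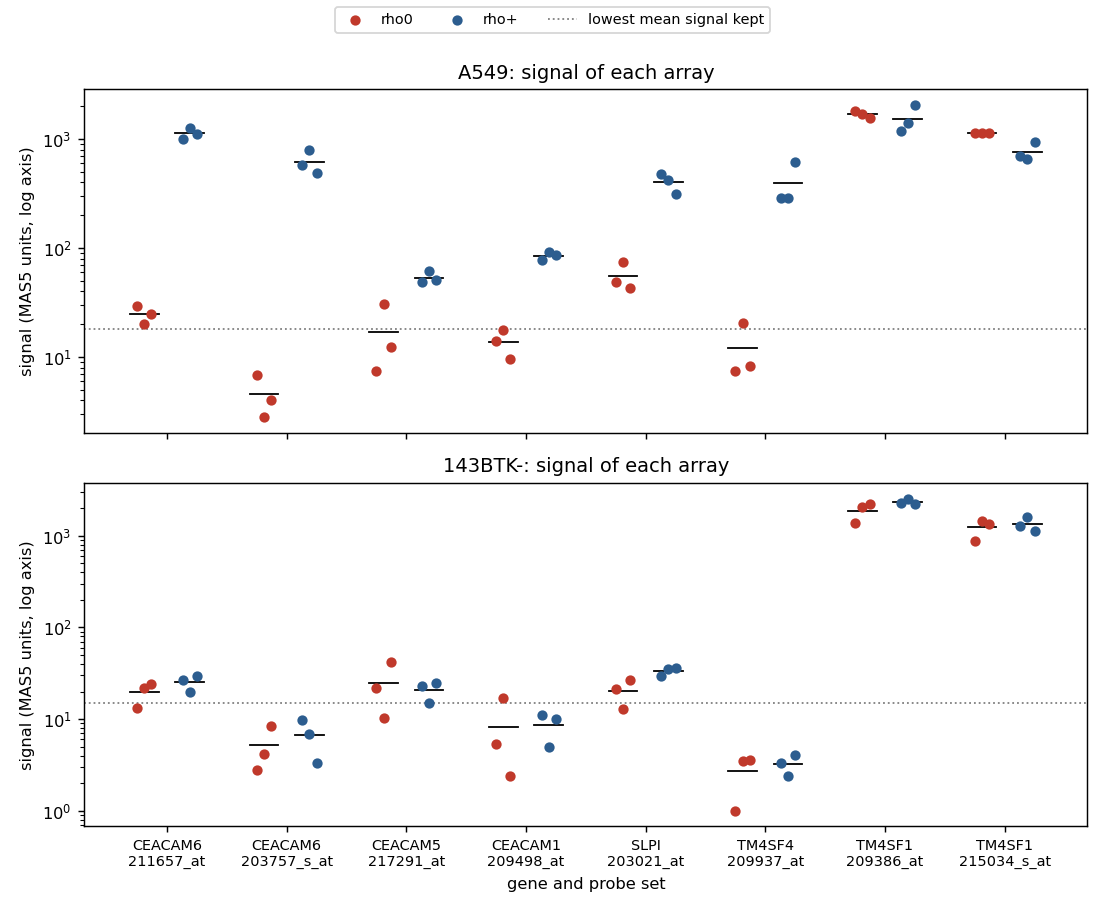
Signal of each array (MAS5 units, log axis) for 8 probe sets of the 6 genes in A549 (top) and 143BTK- (bottom), with rho0 arrays in red left of rho+ arrays in blue. Black lines are group means (n = 3), and the dotted line is the lowest mean signal kept in the line. In A549 the CEACAM6 rho0 arrays sit between 2.8 and 29.6 and the rho+ arrays between 487.3 and 1270, while the groups of TM4SF1 209386_at overlap.

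CEACAM6 was lower in A549 rho0 than in rho+ cells on both of its probe sets. On 211657_at the signal was 29.6, 20.0 and 24.7 on the rho0 arrays A, B and C, against 997.7, 1269.8 and 1102.3 on the rho+ arrays. The groups were far apart, with 24.8 ± 4.80 in rho0 and 1123 ± 137 in rho+ (SD, n = 3 each) and a log2 change of −5.51 (SE 0.19), or 45.7-fold lower as measured. These rho0 signals lay within the range of the probe sets for genes of other tissues or just above its upper end, so the exact size is uncertain: with 16 or 64 added before log2 the change was −4.80 or −3.74. The other probe set, 203757_s_at, gave 6.9, 2.8 and 4.0 in rho0 against 583.3, 790.9 and 487.3 in rho+. All 3 rho0 arrays were under the lowest mean signal kept, so the decrease was at least 34.0-fold (log2 change −7.16, SE 0.43).
In 143BTK-, CEACAM6 had no difference beyond the spread of the arrays. On 211657_at the rho0 arrays had 13.2, 22.1 and 24.4 and the rho+ arrays 26.4, 19.7 and 29.8 (log2 change −0.37, SE 0.33). On 203757_s_at, not kept, signals were 2.8, 4.2 and 8.5 in rho0 and 9.8, 6.8 and 3.3 in rho+. Both groups of this line were thus near the level of probe sets for genes of other tissues.

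CEACAM5, the serum tumour marker, differed between its probe sets. On 217291_at the A549 rho0 arrays had 7.5, 30.9 and 12.4 and the rho+ arrays 48.4, 61.8 and 50.4. All rho0 arrays were lower, 2 of them under the lowest mean signal kept, for a decrease of at least 2.48-fold (log2 change −1.90, SE 0.61). On 201884_at, not kept in A549, signals were 17.1, 25.2 and 9.2 in rho0 and 11.6, 14.9 and 18.0 in rho+, with overlapping groups. Both group means of 201884_at were under the lowest mean signal kept, so it gives no direction to set beside 217291_at. In 143BTK- both overlapped, with 19.1, 17.9 and 15.4 in rho0 against 10.5, 20.2 and 20.0 in rho+ on 201884_at. On 217291_at these cells had 21.6, 10.4 and 42.0 in rho0 and 23.0, 15.0 and 24.7 in rho+.

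CEACAM1, the membrane-spanning member, has 5 probe sets, and 3 of them had all A549 rho0 arrays below the rho+ arrays. The most separated was 209498_at, with 14.1, 17.8 and 9.5 in rho0 against 77.8, 91.4 and 85.6 in rho+. All rho0 arrays were under the lowest mean signal kept, so the decrease was at least 4.74-fold (13.8 ± 4.16 against 84.9 ± 6.82, SD, n = 3 each, log2 change −2.67, SE 0.27). On 211883_x_at the signals were 23.8, 14.7 and 20.0 in rho0 and 48.3, 49.7 and 41.0 in rho+, at least 2.26-fold lower (log2 change −1.27, SE 0.22). The third, 211889_x_at, was not kept and had 15.5, 4.9 and 1.4 in rho0 against 25.0, 17.8 and 34.9 in rho+. Names ending in _x_at or _s_at mark probe sets whose probes can also match other transcripts, so these can carry signal of close relatives.
The remaining CEACAM1 probe sets overlapped in A549. On 206576_s_at the rho0 arrays had 29.8, 31.7 and 23.4 and the rho+ arrays 44.0, 35.0 and 29.2 (log2 change −0.34, SE 0.22). On 210610_at they had 12.8, 17.4 and 28.1 in rho0 and 17.4, 12.4 and 24.5 in rho+ (log2 change 0.08, SE 0.44). The sign of 210610_at turned to −0.22 without rho0 C and −0.16 without rho+ B, so it gives no direction, and the probe sets differed in the size of the decrease. In 143BTK- all 5 overlapped, with 1.8 to 21.0 over the rho0 arrays and 5.0 to 17.7 over the rho+ arrays, and 1 of the 5 was kept.

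**Figure D2:**
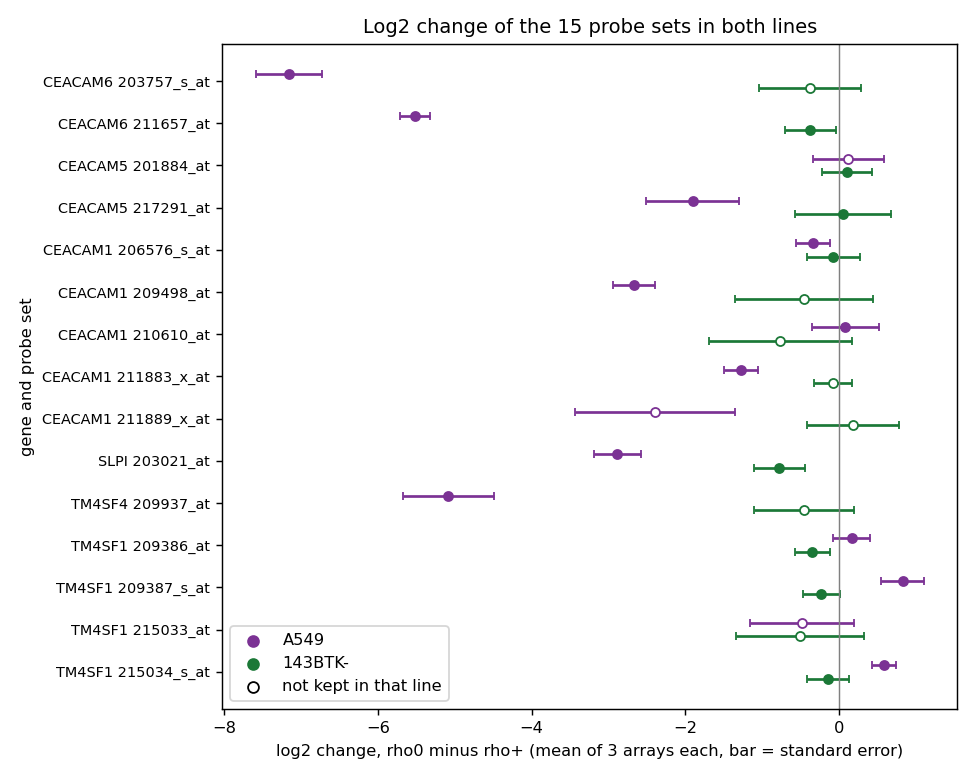
Log2 change (rho0 minus rho+) of all 15 probe sets in A549 (purple) and 143BTK- (green). Points are differences of the mean log2 signals of 3 arrays each, bars are standard errors, and open points were not kept in that line; the A549 changes run from −7.16 for CEACAM6 to 0.83 for TM4SF1.

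SLPI, the secreted inhibitor of neutrophil elastase, is read by 203021_at alone. In A549 the rho0 arrays had 48.6, 74.7 and 43.1 and the rho+ arrays 475.1, 423.6 and 311.9. All arrays were above the lowest mean signal kept, so that this change was measured on both sides, with 55.5 ± 16.9 in rho0 and 403.5 ± 83.4 in rho+ (SD, n = 3 each), 7.38-fold lower (log2 change −2.88, SE 0.30). In 143BTK- the rho0 arrays had 21.3, 12.8 and 26.9 and the rho+ arrays 29.2, 35.0 and 36.2. The 143BTK- groups did not overlap either, with a decrease of at least 1.63-fold (log2 change −0.78, SE 0.33). The 143BTK- means were 20.3 in rho0, within the range of probe sets for genes of other tissues, and 33.5 in rho+, above it. The size is thus uncertain, and with 16 or 64 added before log2 the change was −0.46 or −0.21. The difference of the changes between the lines was not tested, since both changes were in view when the gene was chosen.

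TM4SF4, the L6 family member known from liver and intestinal epithelium, had 7.5, 20.7 and 8.3 on 209937_at in A549 rho0 against 286.0, 286.0 and 613.7 in A549 rho+. Of the rho0 arrays 2 were under the lowest mean signal kept, and the decrease was at least 19.7-fold (log2 change −5.08, SE 0.59). Without the high rho+ C array the log2 change was −4.72. In 143BTK- the probe set was not kept, with 1.0, 3.5 and 3.6 in rho0 and 3.3, 2.4 and 4.1 in rho+. The signal of TM4SF4 in 143BTK- was thus under the lowest mean signal kept on all 6 arrays.

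TM4SF1, its neighbour on chromosome 3, went the other way in A549 on a pair of its probe sets. On 209387_s_at the rho0 arrays had 880.8, 813.4 and 701.1 and the rho+ arrays 382.7, 366.2 and 644.0, 1.77-fold higher in rho0 (798 ± 90.8 against 464 ± 156, SD, n = 3 each, log2 change 0.83, SE 0.28). On 215034_s_at they had 1134.6, 1135.7 and 1141.3 in rho0 and 700.4, 659.7 and 940.7 in rho+, 1.5-fold higher (log2 change 0.59, SE 0.16). In both the rho+ C array was the highest of its group and closest to rho0. On 209386_at the groups overlapped, with 1791.5, 1685.2 and 1559.1 in rho0 and 1181.5, 1389.8 and 2046.7 in rho+ (log2 change 0.16, SE 0.24), and the change was −0.01 without rho+ A. The fourth, 215033_at, was not kept in either line, with 3.8 to 6.6 in rho0 and 3.0 to 12.7 in rho+ in A549.
In 143BTK- the kept probe sets of TM4SF1 all had lower means in rho0. On 209386_at the rho0 arrays had 1369.6, 2045.4 and 2217.0 and the rho+ arrays 2252.9, 2530.7 and 2238.8, so that the groups were separate by a narrow gap (log2 change −0.35, SE 0.22). The log2 changes of 209387_s_at and 215034_s_at were −0.23 and −0.14, and their groups overlapped. In the plot of change against mean signal, TM4SF1 stands at high signal with changes of 0.16 to 0.83 and CEACAM6 and TM4SF4 at the lower edge.

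**Figure D3:**
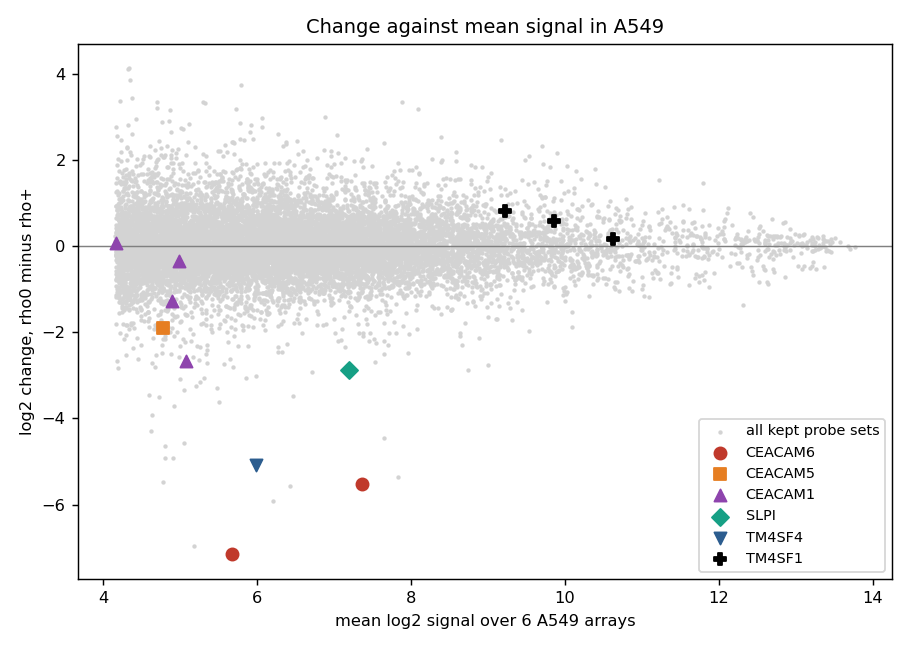
Log2 change (rho0 minus rho+) against the mean log2 signal over 6 arrays in A549. Grey points are the 13370 kept probe sets and coloured symbols the 12 kept ones of the 6 genes; CEACAM6 (−7.16 and −5.51) and TM4SF4 (−5.08) lie at the lower edge of the cloud.

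The epithelial markers that were kept also had lower signal in A549 rho0 than in rho+ cells, whereas the 6 genes did not all fall. Among 6 epithelial markers, KRT19, a keratin of simple epithelia, had a mean of 3.53 in rho0 and 408.7 in rho+ (limma, adjusted p = 1.22e-05), and KRT18, KRT8 and CDH1 (E-cadherin) fell by 1.36, 1.15 and 1.13 on the log2 scale (adjusted p = 0.00666, 0.0258 and 0.0339). EPCAM and CLDN4 were not kept. The summed signal of the 6 epithelial markers was 3701 to 6967 on the rho0 arrays and 10760 to 13160 on the rho+ arrays of A549. In 143BTK- it was 2960 to 5011 in rho0 and 4186 to 5139 in rho+. There KRT18 alone had means of 3524 in rho0 and 4570 in rho+, while KRT19, CDH1 and CLDN4 were not kept. The sums are therefore not compared between the lines. The part of these markers in the changes of the 6 genes was not tested. In bulk RNA, fewer cells with a transcript and less transcript per cell cannot be told apart. Of 6 mesenchymal markers, 5 were kept in 143BTK-, while the bone collagen chain COL1A2 was not, and COL5A1, a fibrillar collagen chain, fell in A549 on 2 of its 3 kept probe sets (log2 changes −1.59 and −1.27, adjusted p = 0.0134 and 0.0479 in limma). VIM (vimentin) had a change of 0.49 in A549 (adjusted p = 0.169), and SPARC, a matrix glycoprotein, was not kept there, with means of 2.97 in rho0 and 29.5 in rho+ on the higher of its probe sets. The summed signal of the mesenchymal markers was 4389 to 4966 in rho0 and 2765 to 4981 in rho+ of A549. Neutrophils are a source of CEACAM proteins and SLPI in tissue, and 0 of 4 neutrophil markers were kept in either line. Replicates differed by a median of 0.268 to 0.481 in log2 signal, with Pearson's r of 0.900 to 0.966 across probe sets.

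Related genes were taken from 9 lists, of which 122 genes were measured in A549. The lists were drawn up with earlier results of these data known, so the p-values and shares of their genes are not an independent test. In limma, 10 of them rose and 5 fell in rho0 at an adjusted p under 0.05, with a median log2 change of 0.03. Over all 8166 measured genes of A549, 5.0% rose and 5.9% fell, with a median of −0.03. Of the related genes 8.20% rose and 4.10% fell, a balance opposite to that of all genes, which did not hold when some single arrays were left out (below). In 143BTK- 0 of 99 measured related genes passed, and over all 8044 measured genes 0.0% passed. At an unadjusted p under 0.05, 13 of the 99 and 8.84% of all genes did in that line. Without the rho0 A array 1 rose and 5 fell, without rho0 B 1 rose and 6 fell, and without rho+ B 2 rose and 5 fell, so that the balance of the calls turned round. Without rho+ C 16 rose and 8 fell, and without the intensity trend 3 rose and 5 fell. Each of the 10 genes that rose lost its call under some other processing or with some array left out.

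**Figure D4:**
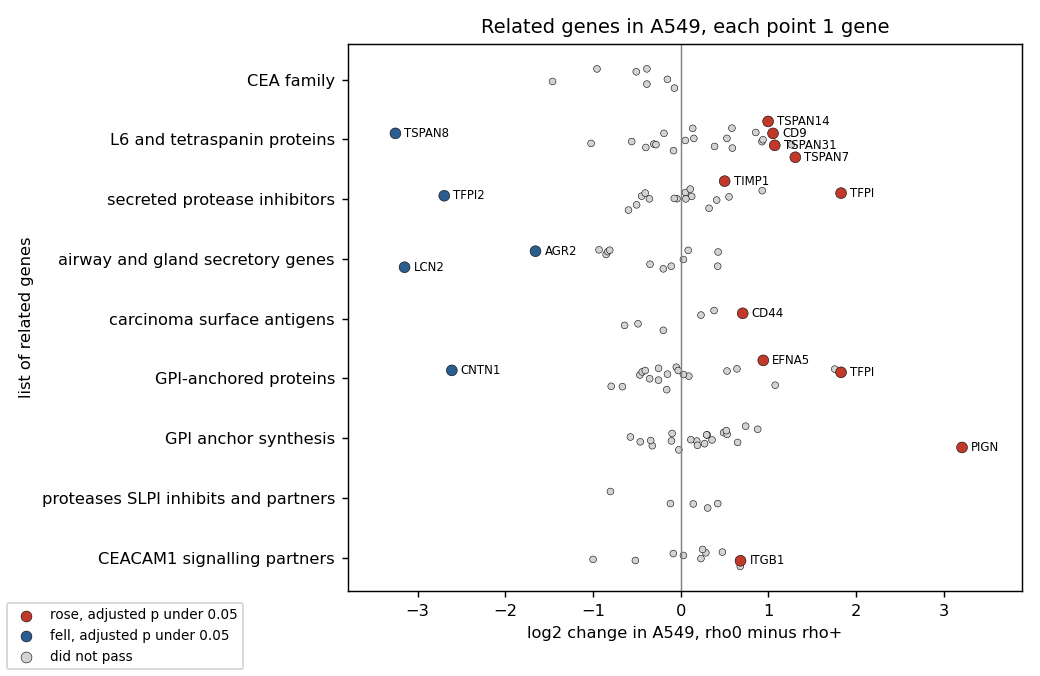
Log2 change in A549 (rho0 minus rho+) of the measured related genes, 1 point a gene, by list (rows). Red points rose and blue points fell in limma at an adjusted p under 0.05, grey points did not pass, and TFPI stands in both lists that hold it; TSPAN8 (−3.25) and LCN2 (−3.15) are plotted farthest to the left and PIGN (3.21) farthest to the right, but each had 2 arrays of its lower group under the lowest mean signal kept.

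Other members of the carcinoembryonic antigen family gave 0 calls among 7 measured genes in A549, with a median log2 change of −0.39. At an unadjusted p under 0.05 in limma, 2 of the 7 fell, as did 1214 of all 8166 measured genes. Among 23 measured tetraspanins and L6 proteins 4 rose and 1 fell, with a median of 0.39. TSPAN8, a tetraspanin of carcinoma cells, fell to 13.9, 19.1 and 6.4 in A549 rho0, against 105.4, 121.8 and 115.0 in rho+ (log2 change −3.25, adjusted p = 0.00142 in limma). Of its rho0 arrays 2 were under the lowest mean signal kept, which leaves the size unmeasured. CD9, a widespread tetraspanin, rose to 578.1, 578.6 and 628.3 in rho0, against 372.8, 263.3 and 239.2 in rho+ (1.05, adjusted p = 0.0114), but missed the threshold without rho0 A or rho+ B (adjusted p of 0.0551 to 0.0553). TSPAN7 (1.31, adjusted p = 0.0269) and TSPAN31 (1.07, adjusted p = 0.0218) also rose. TSPAN7 did not pass without the A or the B array of either group or without the intensity trend (adjusted p up to 0.125), nor TSPAN31 without rho0 A, rho0 B or rho+ B (adjusted p up to 0.0881). TSPAN31's other probe set had a change of 0.67.

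Secreted protease inhibitors gave 2 that rose and 1 that fell among 18 measured. TFPI2, a Kunitz inhibitor of plasmin and other serine proteases, fell to 61.9, 69.0 and 90.3 in A549 rho0, against 381.7, 399.4 and 690.4 in rho+. The groups were well separated, 6.49-fold lower (log2 change −2.70, adjusted p = 0.000576 in limma), and its other probe set had −3.30. TFPI, the GPI-linked or secreted inhibitor of the tissue factor pathway, rose to 583.6, 796.6 and 277.5 in rho0, against 116.3, 103.4 and 238.5 in rho+. Its arrays rho0 C and rho+ C lay close together, but all 4 probe sets had changes of 1.63 to 1.93 (main 1.83, adjusted p = 0.0201). It did not pass without the A or the B array of either group or without the intensity trend (adjusted p up to 0.0943).

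Airway and gland secretory genes had 0 that rose and 2 that fell among 13 measured, with a median log2 change of −0.35. LCN2, which binds bacterial siderophores, fell to 5.2, 17.0 and 24.1 in A549 rho0, against 90.1, 110.2 and 150.2 in rho+ (−3.15, adjusted p = 0.00537 in limma). Of its rho0 arrays 2 were under the lowest mean signal kept, so the size of this decrease was not measured. AGR2, a disulfide isomerase of secretory cells, fell to 324.1, 249.1 and 300.1, against 745.5, 806.1 and 1262.8 in rho+ (−1.66, adjusted p = 0.00247). AGR2 was thus 3.15-fold lower with all arrays above the lowest mean signal kept.

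GPI-anchored proteins gave 2 that rose and 1 that fell among 21 measured. Those that rose were TFPI, already described with the protease inhibitors, and EFNA5 (0.94, adjusted p = 0.0207 in limma). The other kept probe set of EFNA5 went the other way (−0.73). EFNA5 did not pass without rho0 A, rho0 B, rho+ B or the intensity trend (adjusted p of 0.0535 to 0.0871). CNTN1, an anchored adhesion protein of neurons, fell to 14.8, 26.9 and 21.1 in A549 rho0, against 126.7, 100.6 and 150.3 in rho+ (−2.61, adjusted p = 0.00105 in limma). Of its rho0 arrays 1 was under the lowest mean signal kept, so the size of this decrease is uncertain. Genes of GPI anchor synthesis gave 1 that rose and 0 that fell among 21, with a median of 0.27. PIGN, which adds ethanolamine phosphate to the anchor's first mannose, rose to 93.2, 109.6 and 48.5 in rho0, against 4.3, 6.0 and 24.2 in rho+ (3.21, adjusted p = 0.0116), but not without rho0 A or rho0 B (adjusted p of 0.0603 to 0.0681). Of its rho+ arrays 2 were under the lowest mean signal kept, so the size of this rise was not measured. Among carcinoma surface antigens 1 of 6 rose and 0 fell, among CEACAM1 signalling partners 1 of 10 rose and 0 fell, and 0 of 5 proteases and partners of SLPI passed. Neither gene that rose passed without rho0 B, without rho+ B or without the intensity trend.

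Across the lines, 1.86% of 11967 probe sets kept in both differed in their change. Of the related genes named above that were kept in both lines, CNTN1 was the only one past this threshold, with a difference (A549 minus 143BTK-) of −2.83 (limma on 12 arrays, adjusted p = 0.0288). The 143BTK- means of CNTN1 were 27.8 in rho0 and 23.4 in rho+, near the level of probe sets for genes of other tissues. A decrease could hardly have been seen there, so the difference mostly restates the change in A549. It missed the threshold without rho0 A (0.0842), rho+ A (0.0579) or rho+ B (0.0597) of A549 or rho+ A of 143BTK- (0.0629). TSPAN8, LCN2 and AGR2 were not kept in 143BTK- and their difference has no test.

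Genes beside the 6 were compared in A549, with 10 measured genes on each side, 72 in all. Of these 4 rose and 2 fell in limma, against 5.0% and 5.9% of all measured genes, with a median log2 change of 0.01 and a range of −1.46 to 1.07. Beside CEACAM6 and CEACAM5, whose neighbours are the same, AXL, a receptor tyrosine kinase, fell by 0.73 (adjusted p = 0.036), and beside CEACAM1, PAFAH1B3, a subunit of platelet-activating factor acetylhydrolase, fell by 0.68 on the log2 scale (adjusted p = 0.048). Beside SLPI, SERINC3 (1.00, adjusted p = 0.0296) and CTSA, the lysosomal protective protein (1.06, adjusted p = 0.0068), rose. Beside TM4SF4 and TM4SF1, whose neighbours are also the same, PFN2, an actin-binding profilin (0.88, adjusted p = 0.00736), and MBNL1, a splicing factor (0.82, adjusted p = 0.0455), rose. The medians were −0.11 beside CEACAM6 and CEACAM5, −0.14 beside CEACAM1, −0.05 beside SLPI and 0.31 beside TM4SF4 and TM4SF1. Without rho0 A, rho0 B or rho+ B, 2 rose and 0 fell, and without rho+ A 7 rose and 0 fell. With each of the 6 arrays left out in turn, CTSA and PFN2 passed every time (adjusted p up to 0.0481 and 0.0433). AXL was lost 6 times (0.0547 to 0.114), PAFAH1B3 5 times (passing only without rho0 C, up to 0.162), MBNL1 5 times (passing only without rho+ A, up to 0.160) and SERINC3 4 times (passing without rho+ A or rho+ C, up to 0.135).

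**Figure D5:**
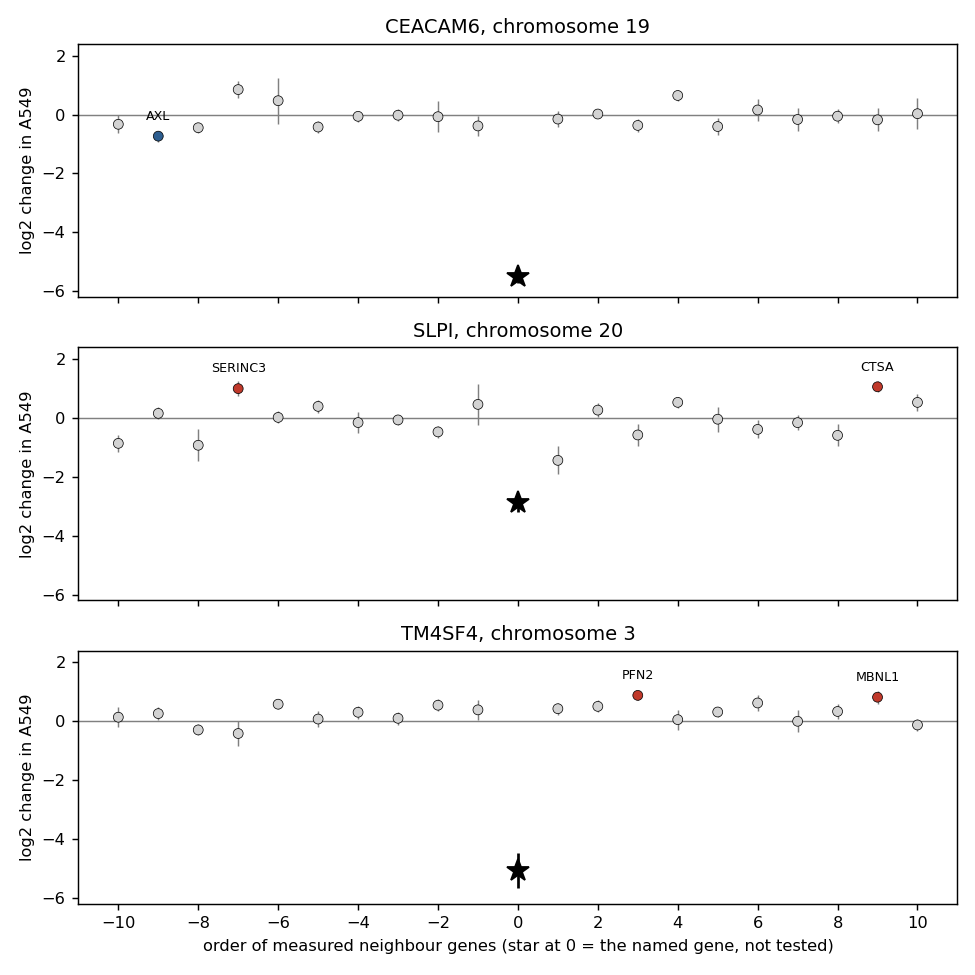
Log2 change in A549 (rho0 minus rho+, bars are standard errors) of the 10 nearest measured genes on each side of CEACAM6, SLPI and TM4SF4, in gene order. Stars show the named gene (CEACAM6 by 211657_at), red and blue points neighbours that rose or fell in limma at an adjusted p under 0.05; all neighbours of CEACAM6 lie between −0.73 and 0.85.

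The genes most like CEACAM6 in their changes were sought by the root mean square difference in log2 signal over the 12 arrays, each line set to its rho+ mean. For 211657_at these were GPX2, a glutathione peroxidase of epithelia (difference 0.352), DLC1 (0.714), NFIB, a transcription factor (0.740), C3, the complement component (0.840), and EFEMP1, a matrix glycoprotein (0.912). GPX2 averaged 37.8 in A549 rho0 and 1466 in rho+ (log2 change −5.36), with −0.05 in 143BTK-. TM4SF4 was closer to CEACAM6 than all of these but GPX2, at 0.613, and the other CEACAM6 probe set stood at 0.952. DLC1, NFIB and EFEMP1 had A549 rho0 means of 6.33, 7.8 and 7.1, under the lowest mean signal kept. The size of their changes was thus not measured, and their order by difference is uncertain.
For TM4SF4, NFIB (0.564), GPX2 (0.787), C3 (0.841), CAMK2N1 (0.910) and H2AC25 (0.988) were closest. Closest to SLPI were KCNK1 (0.422), SNAP25 (0.540), PAPSS2 (0.576), ALDOC (0.592) and ATP1B1 (0.655), and SLPI stood at 1.41 from CEACAM6. The changes were not scaled, so this distance also holds their unlike size in A549 (−2.88 for SLPI and −5.51 for CEACAM6). It does not show an unlike pattern. For TM4SF1 209386_at, whose own change was small, PRLH (0.142), SNW1 (0.147), RPL22 (0.157), RAP1GDS1 (0.158) and MRPL39 (0.164) were closest. NFIB, H2AC25, KCNK1, SNAP25 and ALDOC also had A549 rho0 means under the lowest mean signal kept (7.8 to 16.3). PRLH averaged 25.7 in A549 rho0 and 24.9 in rho+, within the range of probe sets for genes of other tissues. The root mean square differences over shared arrays are a description and carry no test.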

How the data were processed

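Total RNA (12 µg) of A549 and 143BTK- cells, rho0 and rho+, was measured on 12 arrays. The deposited values are intensity signals on a linear scale, computed by the authors with MAS5 (named in the submitters' processing notes) and quantile-normalized by them in each line on its own. The scan of each array gives no read depth, and the 3 arrays of a group limit the precision. The authors' filter on detection calls was replaced by the 60% of probe sets with the highest mean log2 signal in a line. Groups were taken from the labels, and all 12 arrays were used. The tests used limma 3.58.1 under R 4.3.3 (lmFit, eBayes with an intensity trend, no offset, two-sided, Benjamini-Hochberg, threshold 0.05, 4 residual degrees of freedom), after the fits had been tested on simulated data. Of 22283 probe sets, 19071 had 1 gene, 1043 several and 2169 none listed, and 19059 matched a RefSeq Entrez ID. A gene is read by its kept probe set of highest mean log2 signal. The 6 genes and the lists were chosen with earlier results of these data known. Named were all probe sets of the 6 genes, up to 10 related genes called in a line by size of change, called neighbours, and the 5 genes most like each of CEACAM6, SLPI, TM4SF4 and TM4SF1. EFNA5 was named in addition, for its part in the count of GPI-anchored genes. Alternatives were 16 or 64 added before log2, no filter or the highest 40%, arrays scaled to a trimmed mean, quantile normalization over 12 arrays, no intensity trend, a replicate block, and each array left out. Promoters are from RefSeq (GRCh38.p14), and matplotlib 3.10.9 (Python 3.11.15) was used for the figures.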

Additional observations from a re-analysis of the deposited data

Results flagged for a closer look

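CNTN1 had unlike log2 changes in the cell lines, with 143BTK- signals near the level of probe sets for genes of other tissues. Its log2 change (rho0 minus rho+) was −2.61 in A549 and 0.22 in 143BTK-, and the difference of −2.83 passed limma's test of the difference on 12 arrays (adjusted p = 0.02878). It missed the threshold without 1 of 4 arrays, each left out in turn (rho0 A, rho+ A and rho+ B of A549, rho+ A of 143BTK-, adjusted p of 0.0579 to 0.0842), with the same sign.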

How the results depend on the processing

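Of 300 values of the 15 probe sets under the alternatives, 284 moved by less than the spread between replicates, and 20 changed sign, all with an array left out and all for probe sets with overlapping groups. Adding 16 before log2 gave −4.80 for CEACAM6 211657_at, −1.14 for CEACAM5 217291_at, −1.77 for CEACAM1 209498_at and −3.81 for TM4SF4. Adding 64 gave −3.74, −0.55, −0.94 and −2.52 for these and −1.96 for SLPI. An added constant shrinks changes of low signals by construction. Without the intensity trend, 745 probe sets of A549 passed in place of 1417, with 8 in place of 15 related genes and 1 in place of 6 neighbours. With 1 array left out, A549 calls ran from 426 (without rho0 A) to 1900 (without rho+ C), related genes from 6 to 24, neighbours from 2 to 7 and line difference calls from 58 to 309 (223 with all arrays). The cause was not tested. TSPAN8, LCN2, TFPI2, AGR2 and CNTN1 passed in A549 under all alternatives in which they were kept. Deviations of same-letter arrays correlated at 0.053 to 0.106 in A549 and −0.114 to 0.391 in 143BTK-. Not every pair was over 0.1, so the letters were not taken to pair the arrays, although each A549 array correlated best with that of its own letter. With the replicate block, 1434 probe sets passed in A549 and 1 in place of 0 in 143BTK-. A filter on the highest 40%, no filter, scaling and quantile normalization over 12 arrays left each count within 1.5 times its value. After seeing the data, 143BTK- rho0 B and rho+ C, which deviated together, were left out at once, and 0 related genes passed.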
